A study of Homo sapiens with 5 samples.

Results

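TRIM22, TRIM21, PML, SP110 and IFI16 are interferon-inducible genes of the tripartite motif (TRIM) family, of the nuclear bodies or, for IFI16, of the HIN-200 family. They were followed on 5 Affymetrix arrays of T84 cells, a human colon carcinoma line with features of the colonic crypt. The members were chosen by gene symbol, from a list of 6 genes, as every probe set that the platform annotation gives to 1 of them alone. SP100 had no probe set under that name and was dropped. This left 5 genes of 4961 with a single symbol, and 8 probe sets of 7018: 3 for PML, 2 for SP110 and 1 for each of the others. The groups were untreated T84 cells (1 array, labelled as a pooled control), T84 cells after 6 h of interferon-gamma (IFN-gamma) at 1000 U/ml (2 arrays), and T84 cells after 18 h at the same dose (2 arrays). The labels call the 2 arrays of each treated group biological replicates 1 and 2, and the untreated array biological replicate 1. They do not say how the replicate cultures were kept apart, so the p-values measure only the spread between these arrays. A cell line is in any case 1 genetic background. The value of a probe set is an intensity on a linear scale. A value of 20 was taken as the floor, and all 8 member probe sets lay above it on all 5 arrays.

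IFN-gamma binds its receptor and activates JAK kinases, and the signal reaches target genes through the GAS element of their promoters. An early target is IRF1, a factor that binds the ISRE, the element shared with type I interferon signalling. TRIM proteins carry a RING finger, B-boxes and a coiled coil, and many act as E3 ubiquitin ligases. TRIM22 (also called STAF50) restricts viruses, and TRIM21 (the Ro52 autoantigen) is a cytosolic antibody receptor and ubiquitin ligase. PML, itself a TRIM protein (TRIM19), builds the scaffold of PML nuclear bodies, to which SUMO-modified partners such as SP100 are recruited. SP110 is a nuclear body protein related to SP100 and SP140, and IFI16 is a nuclear and cytosolic DNA sensor of the HIN-200 family.

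The promoters were examined for the elements that carry the signal. RefSeq windows of 250 bases before to 50 after a transcription start (GRCh38.p14) were available for 3 of the 5 genes, in 5 windows, and none was held for TRIM22 or PML. The elements searched, on both strands, were the GAS (TTC, any 3 bases, GAA, its own reverse complement) and an ISRE core, GAAANNGAAA. The ISRE core stood in 1 of these 5 windows, that of TRIM21, and in 3.57% of all 35116 windows. The GAS stood in 1 of the 5, the second start of SP110, and in 7.66% of all windows. The 2 windows that hold a match are given because they show the letters themselves, in capitals within lower-case flanks, 5′ to 3′ on the strand of the gene. The TRIM21 window is chr11:4393653-4393952, minus strand, and the SP110 window chr2:230219935-230220234, minus strand.
TRIM21: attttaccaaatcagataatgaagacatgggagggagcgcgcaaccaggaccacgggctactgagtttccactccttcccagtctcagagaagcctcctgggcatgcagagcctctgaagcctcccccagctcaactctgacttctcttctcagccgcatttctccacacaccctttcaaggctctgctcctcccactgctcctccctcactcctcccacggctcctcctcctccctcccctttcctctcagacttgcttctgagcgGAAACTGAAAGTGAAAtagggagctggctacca
SP110: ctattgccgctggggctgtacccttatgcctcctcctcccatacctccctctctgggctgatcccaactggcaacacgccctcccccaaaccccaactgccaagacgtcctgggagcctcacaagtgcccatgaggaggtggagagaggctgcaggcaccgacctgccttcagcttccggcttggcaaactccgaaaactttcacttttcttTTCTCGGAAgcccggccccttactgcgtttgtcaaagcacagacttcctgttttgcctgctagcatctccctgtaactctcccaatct

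In TRIM21 the capitals are a pair of overlapping ISRE cores that begin 17 and 23 bases after the start site, and in SP110 the GAS begins 38 bases before it. The other SP110 window and the 2 windows of IFI16 held neither string. A match is a description of the letters and not evidence of a bound site.

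Genes of the IFN-gamma pathway were at odds with the labels of 2 arrays. The summed intensity of 9 genes of the IFN-gamma pathway, values under the floor set to it, was 6465 on the untreated-labelled array, 851 on 6 h-labelled replicate 1 and 5969 on 6 h replicate 2, with 6832 and 8116 on the 18 h arrays. These 9 include the receptor and kinase genes IFNGR1, IFNGR2 and JAK1 as well as targets. IRF1 alone had 14 on 6 h-labelled replicate 1 and 1086 on the untreated-labelled array. Between those 2 arrays 8 of the 9 were lower on 6 h-labelled replicate 1, and 1, IFNGR2, was higher there (159 against 78). These 2 arrays are called by their labels throughout, so every direction drawn from either is only as good as its label. All 14 markers of colon epithelium, such as keratin 18 and villin, lay above the floor on every array, summing to 9226 to 16411, with the highest sum on 6 h-labelled replicate 1. Of 12 leukocyte markers 5 to 7 lay above the floor, with sums of 559 to 790, with CD3E (168 to 345), LYZ (54 to 135), ITGAX (37 to 87) and GZMB (53 to 68) above it on every array and CD14, ITGAM and NKG7 on none. Of 11 fibroblast and endothelial markers 4 to 6 lay above it, with sums of 375 to 579. The part of cell composition or RNA quality in the results was not tested. Fewer cells that express a gene and less RNA in each of them cannot be told apart in such samples. The median of the tested probe sets, on the log2 scale, was 6.23 on the untreated-labelled array, 6.07 and 6.32 on the 6 h arrays, and 6.19 and 6.21 on the 18 h arrays.

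**Figure D1:**
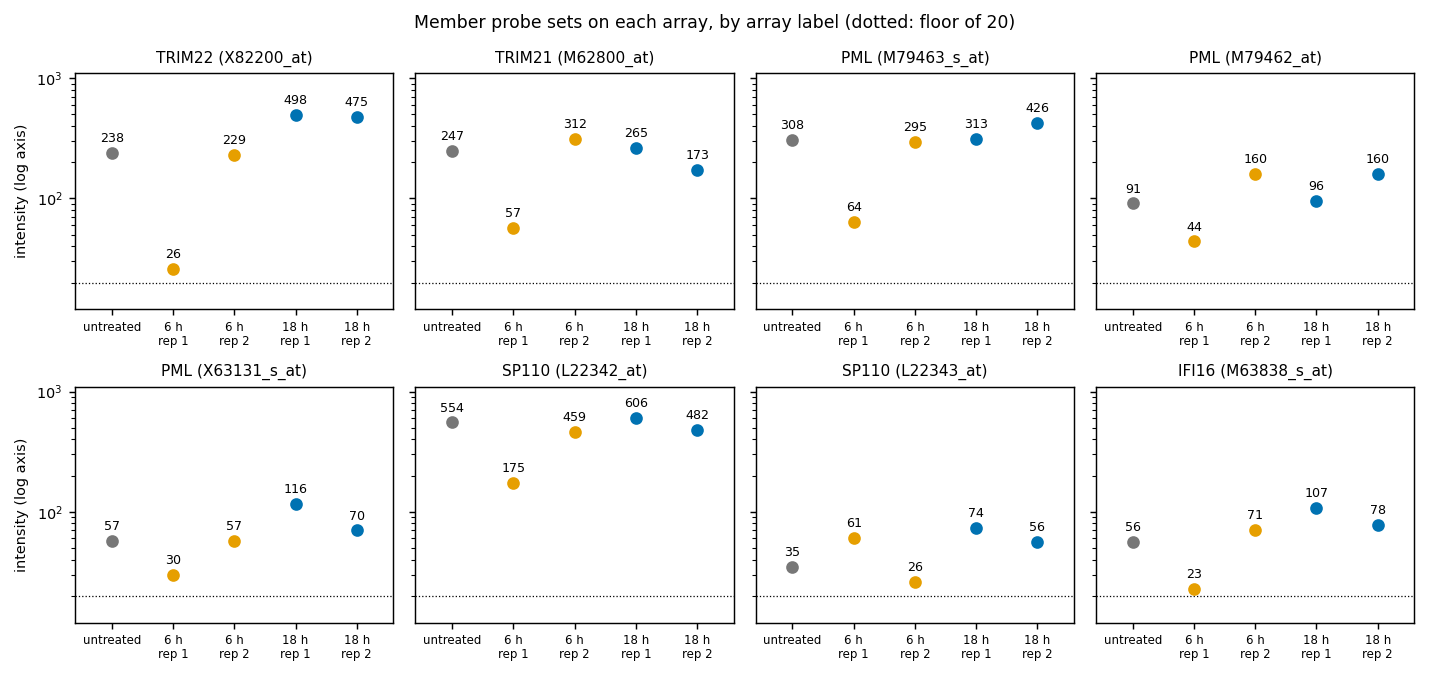
Intensity (log axis) of each member probe set on each of the 5 arrays, 1 point per array, coloured by labelled group, with the floor of 20 dotted. TRIM22 had 498 and 475 on the 18 h arrays, above the other 3, and 7 of the 8 probe sets were lowest on 6 h-labelled replicate 1.

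TRIM22 varied most among the members. Its intensity was 238 on the untreated-labelled array, 26 on 6 h-labelled replicate 1 and 229 on 6 h replicate 2, with 498 and 475 on the 18 h arrays. The 18 h arrays were thus the highest and lay close together, the untreated-labelled array and 6 h replicate 2 were level with each other below them, and 6 h-labelled replicate 1 was near the floor. Ranked among all probe sets of the same array, TRIM22 was at percentile 85.4 on the untreated-labelled array, 46.9 and 84.4 on the 6 h arrays, and 92.8 and 93.1 on the 18 h arrays. The 18 h mean was 486.5 ± 16.3 (SD, n = 2), against 238 on the untreated-labelled array, which gave a log2 change of 1.03 (SE 1.502) that did not pass limma's test (adjusted p = 1).

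TRIM21 had no common direction on the 18 h arrays. It had 247 on the untreated-labelled array, 57 on 6 h-labelled replicate 1 and 312 on 6 h replicate 2, with 265 and 173 at 18 h. The array labelled 6 h replicate 1 was the low one, and the 18 h arrays lay on either side of the untreated-labelled array. The mean at 18 h was 219.0 ± 65.1 (SD, n = 2) and the untreated value 247, which gave a log2 change of -0.21 (SE 1.22, limma adjusted p = 1).

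PML was measured by 3 probe sets. The brightest, M79463_s_at, had 308 on the untreated-labelled array, 64 on 6 h-labelled replicate 1 and 295 on 6 h replicate 2, with 313 and 426 at 18 h. The second, M79462_at, had 91, then 44 and 160, then 96 and 160 in the same order. The third, X63131_s_at, had 57, then 30 and 57, then 116 and 70. All 3 were lowest on 6 h-labelled replicate 1, and on each of them both 18 h arrays exceeded the untreated-labelled array, though M79463_s_at and M79462_at did so by only 5 units on 18 h replicate 1. The order of the 18 h replicates was not shared: replicate 2 was the higher on the first pair of probe sets and replicate 1 on the third. In Affymetrix naming the suffix _s_at marks probes that match more than 1 transcript, so such a value may combine transcripts.

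The SP110 probe sets parted ways. L22342_at had 554 on the untreated-labelled array, 175 on 6 h-labelled replicate 1 and 459 on 6 h replicate 2, with 606 and 482 at 18 h. It thus followed the other members on 6 h-labelled replicate 1, and its 18 h arrays enclosed the value of the untreated-labelled array. L22343_at had 35, then 61 and 26, then 74 and 56. It was the 1 member probe set that was not lowest on 6 h-labelled replicate 1, and its values lay within 26 to 74, close to the floor.

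IFI16 was dim. Its probe set, M63838_s_at, had 56 on the untreated-labelled array, 23 on 6 h-labelled replicate 1 and 71 on 6 h replicate 2, with 107 and 78 at 18 h. The 18 h arrays were the highest and 6 h-labelled replicate 1 was close to the floor. The 18 h mean of 92.5 ± 20.5 (SD, n = 2) stood against 56, which gave a log2 change of 0.70 (SE 0.82, limma adjusted p = 1).

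At 18 h against the untreated-labelled array, both treated arrays lay above the single untreated value for 6 of 8 member probe sets (TRIM22, the 3 of PML, SP110 L22343_at and IFI16), and below it for 0. The same held for 29.9% of the 5029 tested probe sets in the upward direction and 37.2% in the downward one. In each comparison of groups this order was judged on values before flooring, so such shares can include probe sets below the floor. Probe sets floored on every array compared have a log2 change of 0. The log2 change was above 0 for 6 of the 8 members (42.3% of all tested) and below 0 for 2 (51.8%). Its median over the 8 was 0.55, from -0.21 to 1.03, beside -0.02 over all tested probe sets. None of the 8 passed limma's test, and neither did any other probe set: 0 were called in either direction (0.0%), while an unadjusted p under 0.05 was reached by 98 in the upward direction (1.95%) and 125 in the downward (2.49%). No member was among those. The largest changes after TRIM22 were 0.86 (SE 0.64) for SP110 L22343_at, 0.70 (SE 0.82) for IFI16 and 0.65 (SE 0.59) for PML X63131_s_at. The size of the change, and not its error, was unaffected by the 6 h arrays. Without 6 h-labelled replicate 1, TRIM22 kept its log2 change of 1.03. Its error then rested only on the gap between the 18 h replicates, which for TRIM22 was 0.07.

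At 6 h against the untreated-labelled array, the 2 arrays of the group disagreed. As labelled, both 6 h arrays lay below the untreated value for 3 of 8 member probe sets (TRIM22, PML M79463_s_at and SP110 L22342_at; 28.8% of all tested) and above it for 0 (25.9% of all tested). The median log2 change was -0.67 beside 0.00 over all tested probe sets, with the lowest at -1.60 (SE 1.502) for TRIM22 and -1.16 (SE 1.09) for PML M79463_s_at. In limma 0 members and 0 other probe sets passed (0.0%; smallest adjusted p over the members = 1), and an unadjusted p under 0.05 was reached by 85 upward (1.69%) and 98 downward (1.95%), none a member. Without 6 h-labelled replicate 1 these changes were -0.06 for TRIM22 and -0.06 for PML M79463_s_at. Without it TRIM21 had 0.34, PML M79462_at to 0.81 and IFI16 to 0.34, with SP110 L22343_at at -0.415 and PML X63131_s_at at 0.00.

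At 18 h against 6 h, all 8 log2 changes were above 0 as labelled, with a median of 1.02, beside -0.03 over all tested probe sets, of which 45.4% were above 0. TRIM22 had 486.5 ± 16.3 at 18 h and 127.5 ± 144 at 6 h (SD, n = 2 each), a log2 change of 2.63 (SE 1.23), which ranked 11 from the top among 5029 and did not pass limma's test (adjusted p = 0.940). PML M79463_s_at had 369.5 ± 79.9 at 18 h and 179.5 ± 163 at 6 h (SD, n = 2 each), a log2 change of 1.40 (SE 0.89). Both 18 h arrays exceeded both 6 h arrays for 5 of 8 member probe sets (TRIM22, PML M79463_s_at and X63131_s_at, SP110 L22342_at and IFI16; 13.1% of all tested), and lay below both for 0 (15.6% of all tested). No probe set passed (0.0% in either direction), and an unadjusted p under 0.05 was reached by 112 upward (2.23%) and 105 downward (2.09%), again with no member. The smallest unadjusted p of a member was 0.101, for PML X63131_s_at.

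These 18 h over 6 h changes rested largely on 6 h-labelled replicate 1. Without it TRIM22 had a log2 change of 1.08, with the 18 h arrays 2.17-fold and 2.07-fold above 6 h replicate 2. That fit leaves 1 array at 6 h and takes its spread from the 18 h pair, so only sizes are given. PML M79463_s_at was then 0.31, PML X63131_s_at 0.65, SP110 L22342_at 0.24 and IFI16 0.36. TRIM21 was at -0.54 and PML M79462_at at -0.37, while SP110 L22343_at had 1.28. Without 6 h replicate 2 instead, TRIM22 had 4.17, PML M79463_s_at 2.49, TRIM21 1.89 and IFI16 1.94, with no adjusted p below 0.209.

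**Figure D2:**
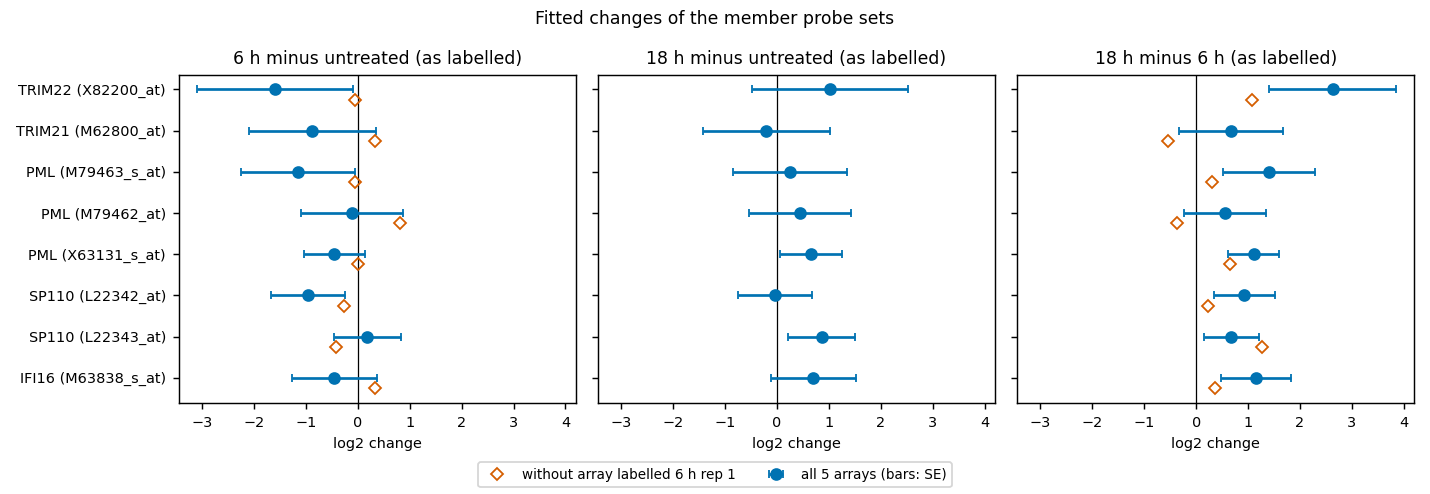
Log2 change of each member probe set in the 3 comparisons as labelled, from the fit on all 5 arrays (circles, bars are SE) and from the fit without 6 h-labelled replicate 1 (diamonds, drawn just below, for the comparisons that hold a 6 h array). For TRIM22 the 18 h minus 6 h change of 2.63 became 1.08 without that array.

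The gap between replicates showed the same split within groups. On the log2 scale the 6 h replicates differed by a median of 1.71 over the 8 member probe sets, against 0.56 over all tested probe sets. The widest gaps were 3.09 for TRIM22, 2.43 for TRIM21 and 2.19 for PML M79463_s_at. The 18 h replicates differed by a median of 0.45 over the members, against 0.35 over all, and TRIM22 had the narrowest gap, at 0.07.

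Taken singly, 6 h-labelled replicate 1 differed from the untreated-labelled array by -1.45 (log2, median over the members), beside 0.00 over all tested probe sets, and 7 of the 8 differences were below 0 (48.4% of all tested). Of the 8, 6 were at least 2-fold lower there (13.0% of all tested) and 0 at least 2-fold higher (9.33%). TRIM22 had the largest such difference, -3.15, and SP110 L22343_at the 1 difference above 0, at 0.78. On 6 h replicate 2 the median difference from the untreated-labelled array was -0.03, with 0 members past 2-fold either way (7.18% of all tested higher, 4.97% lower). On 18 h replicate 1 it was 0.53 with all 8 above 0 (39.3% of all tested), and with TRIM22, PML X63131_s_at and SP110 L22343_at at least 2-fold higher (6.64% of all tested) and 0 at least 2-fold lower (6.01%). On 18 h replicate 2 it was 0.47, with 0 past 2-fold (8.01% higher and 8.31% lower of all tested) and TRIM22 at 2.00-fold just short of it. Set against 6 h-labelled replicate 1 instead, the median member was 2.04 higher on 18 h replicate 1 and 1.65 higher on 18 h replicate 2. Of the 8, 7 were at least 2-fold higher and 0 at least 2-fold lower on each, where all tested probe sets gave 12.9% and 10.8% for the first of these arrays, and 12.5% and 9.29% for the second. The difference of 6 h replicate 2 from its own replicate had a median of 1.71, between the medians of the 18 h arrays, with 6 members at least 2-fold higher (16.4% of all tested) and 1 at least 2-fold lower (12.3%). For TRIM22 these were folds of 19.2, 18.3 and 8.81. Set against 6 h replicate 2, 18 h replicate 1 had 3 members at least 2-fold higher (4.61% of all tested) and 0 lower (6.58%), and 18 h replicate 2 had 2 (9.13%) and 0 (10.5%). TRIM22 and SP110 L22343_at were among them on both 18 h arrays. Each of these is a comparison of 2 single arrays and has no replicate check. The shares above or below 0 count probe sets floored on both arrays as neither, whereas no member was floored.

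**Figure D3:**
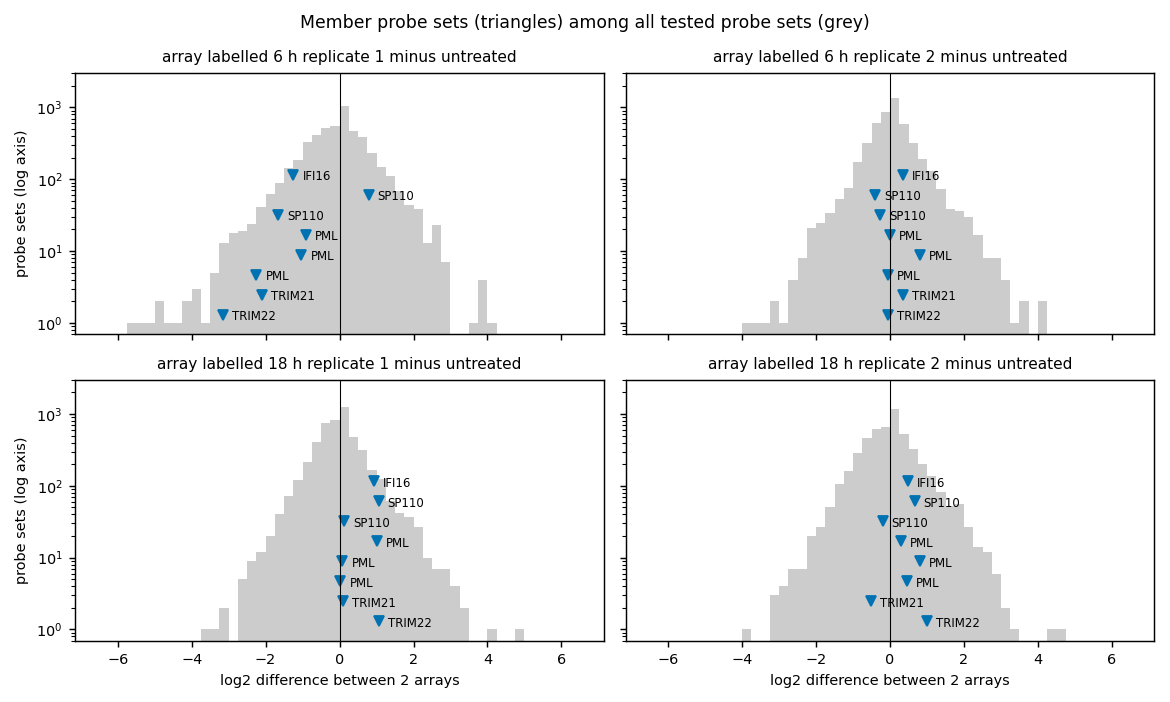
Log2 difference of each treated array from the untreated-labelled array, for all 5029 tested probe sets (grey histogram, count on a log axis) and the 8 member probe sets (triangles, whose height only separates the names). On 6 h-labelled replicate 1, 7 of 8 members lay below 0, and on 18 h replicate 1 all 8 lay above 0.

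The authors' deposited table of induced genes carries a control column whose values differ from the untreated column. It holds 97 probe sets, although its title gives the number 105. Of the member genes, 3 were among the 97: TRIM22 in place 9, TRIM21 in place 20 and PML (X63131_s_at) in place 69. For all 97 the 4 treated values matched those of the 5-array table exactly, and for 3 the control value did. In that authors' deposited table the control value was 12 for TRIM22, 10 for TRIM21 and 10 for PML X63131_s_at, where the untreated-labelled array had 238, 247 and 57. With that control value raised to the floor, the 18 h mean in the authors' deposited table exceeded it at least 24.3-fold for TRIM22, at least 10.95-fold for TRIM21 and at least 4.65-fold for PML X63131_s_at. In the same order, these bounds were 11.9, 12.35 and 2.85 for the untreated-labelled array and 11.45, 15.6 and 2.85 for 6 h replicate 2. For 6 h-labelled replicate 1 they were 1.3, 2.85 and 1.5. For TRIM21 the untreated-labelled array and 6 h replicate 2 thus stood above the 18 h mean. The list was chosen on these arrays and is not independent evidence of induction. SP110, IFI16 and the other 2 probe sets of PML were not among the 97.

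The other TRIM genes were split in direction. Of a list of 45 further family genes 10 were on the array and 7 passed the floor. At 18 h against the untreated-labelled array, 4 lay above 0 (42.3% of all tested) and 3 below (51.8%). The median log2 change was 0.05, with 0 called by limma. The highest were TRIM38, with 30 and 155 against 33, TRIM31, with 136 and 120 against 73, and TRIM32, with 30 and 41 against 26. TRIM31 is a colon-expressed ubiquitin ligase, and TRIM38 restrains innate immune signalling. The 2 replicates of TRIM38 lay on either side of the untreated-labelled array, while those of TRIM31 were both above it. The lowest were TRIM14, with 96 and 56 against 143, TRIM26, with 475 and 350 against 551, and TRIM28, with 796 and 1004 against 1004. TRIM28, a corepressor of KRAB zinc finger proteins, had 1033 on 6 h-labelled replicate 1 and so was level there with the untreated-labelled array. TRIM14 and TRIM26 were low on that array, at 31 and 139. Of the 7 genes, 3 were at least 2-fold lower on it than on the untreated-labelled array (TRIM14, TRIM26 and TRIM31; 13.0% of all tested) and 1 at least 2-fold higher (TRIM38, 109 against 33; 9.33% of all tested).

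**Figure D4:**
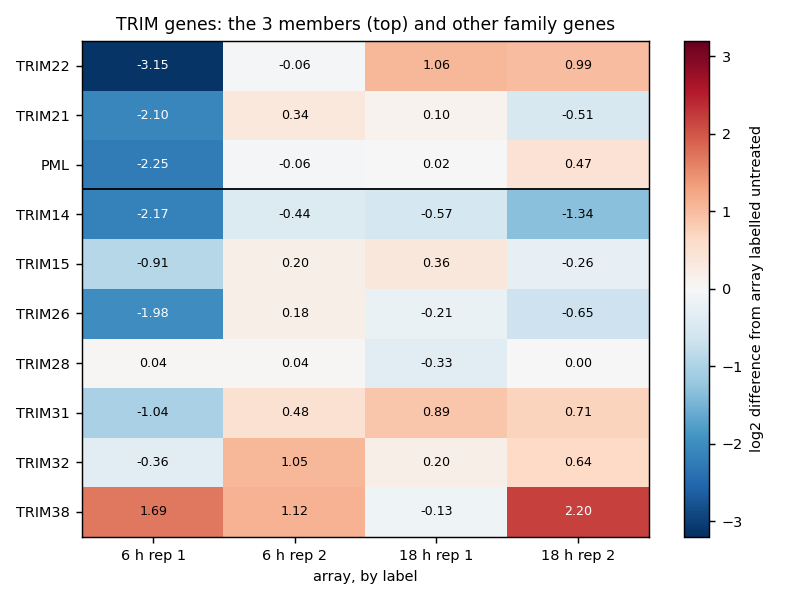
Log2 difference of each treated array (columns) from the untreated-labelled array for TRIM22, TRIM21 and the brightest PML probe set (above the line) and for 7 other TRIM genes (below it), red above 0 and blue below. On 6 h-labelled replicate 1 TRIM22 stood at -3.15, TRIM14 at -2.17 and TRIM28 at 0.04.

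Partners of PML in the nuclear bodies were a larger list, of 42 genes, with 23 on the array and 18 above the floor. At 18 h against the untreated-labelled array, 2 lay above 0 (42.3% of all tested) and 14 below (51.8%). The median log2 change was -0.56, and limma called 0. Set against 6 h-labelled replicate 1 instead, the median was -0.01 on 18 h replicate 1, beside 0.00 over all tested probe sets. There 3 were at least 2-fold higher (12.9% of all tested) and 0 at least 2-fold lower (10.8%). On 18 h replicate 2 the median was -0.16, beside 0.00, with 1 at least 2-fold higher (12.5%) and 1 at least 2-fold lower (9.29%). The exonuclease ISG20, found in nuclear bodies, had 1436 and 1887 against 765, the highest change at 1.10. PIAS1, a SUMO ligase, had 47 and 67 against 42, and the retinoic acid receptor RARA, the fusion partner of PML in promyelocytic leukaemia, was below the floor at 18 h and on the untreated-labelled array. The lowest were the acetyltransferase CREBBP, with 20 and 28 against 58, the SUMO-targeted ubiquitin ligase RNF4, with 266 and 150 against 469, and the p53 ligase MDM2, with 37 and 43 against 81. On 6 h-labelled replicate 1 CREBBP had 6, RNF4 77 and MDM2 52. For 13 of the 18 both 18 h arrays lay below the untreated-labelled array in the values before flooring, a pattern that 37.2% of all tested probe sets shared. The 13 include RARA and CBX5, which were below the floor on all of these arrays and had a fitted log2 change of 0. SP140, a relative of SP110 that was singled out after its values were seen, was below the floor on every array.

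DNA sensing, the field of IFI16, was covered by 15 listed genes, of which 8 were on the array and 7 above the floor. At 18 h against the untreated-labelled array 1 lay above 0 (42.3% of all tested) and 6 below (51.8%), with a median log2 change of -0.41 and 0 called. Set against 6 h-labelled replicate 1 instead, the median was -0.07 on 18 h replicate 1, beside 0.00 over all tested probe sets. There 2 were at least 2-fold higher (12.9% of all tested) and 1 at least 2-fold lower (10.8%). On 18 h replicate 2 the median was -0.33, beside 0.00, with 0 at least 2-fold higher (12.5%) and 2 at least 2-fold lower (9.29%). IRF3, the transcription factor that acts downstream of such sensors, had 341 and 260 against 259. HMGB1, a chromatin protein, had 816 and 971 against 900, and the DNA end-binding subunits XRCC5 and XRCC6 had 324 and 204 against 333, and 455 and 171 against 457. The helicase DHX9 had 99 and 98 against 156. HMGB2 had 38 and 32 against 116, a log2 change of -1.71 (SE 0.34) with an unadjusted p of 0.0126 and a limma adjusted p of 0.985. MNDA, the other HIN-200 gene of the list on the array, was also looked up after its values were seen, and it did not exceed the floor on any array.

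Genes whose pattern over the 5 arrays lay nearest to a member were ranked among 2190 probe sets of 100 or more on some array, by the root mean square difference of log2 values after each gene's mean was removed. All 5 genes spanned at least 1 on the log2 scale. For TRIM22 they were GBP2 (0.11), a guanylate-binding GTPase, PSMB9 (0.24), an immunoproteasome subunit, and OAS2 (0.38), an oligoadenylate synthetase. GBP2 had 168 on the untreated-labelled array, 15 and 178 at 6 h, and 317 and 322 at 18 h. For PML (M79463_s_at) they were the interferon regulatory factor IRF7 (0.13), ZNF787 (0.16) and LARP4B (0.20). For SP110 (L22342_at) they were FAM120A (0.06), the scramblase PLSCR1 (0.09) and the topoisomerase TOP1 (0.11). For TRIM21 they were the kinases MAPK9 (0.08) and RPS6KA1 (0.13) and then TRIM26 (0.15), and for IFI16 TRIM31 (0.11), GCH1 (0.17) and CKAP4 (0.19). Among the members themselves the nearest pair was SP110 and IFI16 (0.28) and the farthest SP110 and TRIM22 (0.94). These differences rest on 5 arrays, 1 of which is low for most of the members, and are given as a description.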

How the data were processed

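Intensities per probe set were deposited by the authors as whole numbers on a linear scale. Between 25.3% and 29.5% of the values of an array were negative. The algorithm, scaling and software are not given in the sources used here. Biotin labelling for Affymetrix arrays is stated per the labels' protocols. Probe sets were named through the supplied platform annotation: 5649 had 1 symbol, 321 several and 1048 none. Analysis used log2(value + 1) with a floor of 20, which understates the change of dim genes. The 5029 probe sets above 20 on at least 1 array were fitted with limma 3.58.1 in R 4.3.3 on all 5 arrays (2 residual degrees of freedom, prior 1.24), with Benjamini-Hochberg adjustment and a threshold of 0.05. For the single untreated array the spread of the treated groups was borrowed. The number of arrays limits the precision.

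The members and gene lists, and the rule for named genes (every member probe set, the 3 highest and 3 lowest changes of each list at 18 h against untreated, and the 3 nearest patterns of each member), were chosen with earlier results of these data known. For a gene of a list the probe set with the highest mean was used. Alternatives were other floors (50 and 100), a pseudocount of 16, quantile or median scaling, no filter, 2-group fits, leaving out each treated array, a replicate block and a variance trend. A crossed block and within-array percentiles were added after seeing the data. Figures were drawn with matplotlib 3.10.9.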

Additional observations from a re-analysis of the deposited data

Results flagged for a closer look

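For 2 member probe sets the treated times lay on opposite sides of the untreated-labelled array on every array. TRIM22 was above it on both 18 h arrays (498 and 475, against 238) and below it on both 6 h arrays (229 and 26), a log2 difference of 2.63 for 18 h against 6 h. PML M79463_s_at did the same (313 and 426 at 18 h and 64 and 295 at 6 h, against 308), a log2 difference of 1.40. The test of that difference is the comparison of 18 h with 6 h, which neither passed in limma (adjusted p = 0.940 for each). Among all 5029 tested probe sets, 141 (2.80%) had this pattern and 149 (2.96%) its reverse. On 6 h replicate 2 both probe sets were nearly level with the untreated-labelled array, with log2 differences of -0.06 for TRIM22 and -0.06 for PML M79463_s_at. For PML the 18 h replicate 1 value exceeded that of the untreated-labelled array by 5 units, and without 6 h-labelled replicate 1 the differences were 1.08 for TRIM22 and 0.31 for PML M79463_s_at.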

How the results depend on the processing

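Over 13 alternatives, 24 member changes gave 309 recomputed values. None passed the threshold, 293 kept their direction, 4 became exactly 0 and 12 changed sign. Part of the 293 was fixed by construction, so that count does not measure stability. The unfiltered, variance-trend and 2-group fits keep the size of each change. Leaving out an array alters only the comparisons that hold its group, and the replicate block leaves 18 h against 6 h as it was. The lowest adjusted p of a member was 0.377 for 18 h against untreated, 0.226 for 6 h against untreated and 0.209 for 18 h against 6 h, all for TRIM22. Leaving out 1 treated array turned these signs, with the lowest and highest values given: at 18 h against untreated TRIM21 (-0.51 to 0.10) and SP110 L22342_at (-0.20 to 0.13); at 6 h against untreated TRIM21 (-2.10 to 0.34), PML M79462_at (-1.03 to 0.81), SP110 L22343_at (-0.415 to 0.78) and IFI16 (-1.25 to 0.34); and at 18 h against 6 h TRIM21 (-0.54 to 1.89) and PML M79462_at (-0.37 to 1.47). At 6 h against untreated a floor of 100 turned PML M79462_at to 0.34, and a floor of 50 turned IFI16 to 0.0883. The mean over both SP110 probe sets at 18 h against untreated was 0.41, where the brighter alone gave -0.04.

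Without the filter on low values limma called 97 probe sets at 18 h against untreated, 100 at 6 h against untreated, and 1 between the treated times, where the filtered fits called 0. Of these, 91, 92 and 1 had equal floored values within both treated groups, and 0 were members. All other settings called 0. Same-numbered arrays at 6 h and 18 h had only a weak tendency to deviate in opposite directions (correlation -0.29 across probe sets). The labels give no shared culture or day, so the numbers were not taken as pairs. With the replicate number as a block 0 probe sets were called in each comparison, and at 18 h against untreated the PML probe sets M79463_s_at and M79462_at turned to -0.41 and -0.20, and TRIM22 had 0.27, where the fit without it gave 1.03. The crossed pairing, added after seeing the data, also called 0. A floor of 100 brought the members' median difference between 6 h-labelled replicate 1 and the untreated one to -0.62, where the floor of 20 gave -1.45. It lowered the bounds against the authors' deposited control values to at least 4.87-fold for TRIM22 and 2.19-fold for TRIM21, and left none for PML X63131_s_at, which had at least 1.86-fold at a floor of 50. At a floor of 100 TRIM22 had 1.68 for 18 h against 6 h and -0.65 for 6 h against untreated, where the floor of 20 gave 2.63 and -1.60, and PML M79462_at had 0.00 for 18 h against 6 h, where it gave 0.55. PML X63131_s_at, SP110 L22343_at and IFI16, which are dim, also changed in size with the floor.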
